A study of Danio rerio with 10 samples.

Results

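Tight junctions seal the space between neighbouring epithelial and endothelial cells, and gap junctions join the cytoplasm of neighbouring cells. In a tight junction, claudins, occludins, tricellulin-type MARVEL proteins and junctional adhesion molecules span the membrane and are tied to actin by zonula occludens scaffolds and cingulin, and the claudins present set which ions pass. Gap junction channels are built of connexins, and in zebrafish embryos both families are used by the skin, the vessels, the kidney ducts and Kupffer's vesicle. The genes described here are those of the deposited count table whose symbols begin with cldn, tjp, ocln, marveld, cgn, f11r, gj or cx followed by the letters or digits of those families, together with epcam, the gene of an epithelial adhesion protein that binds claudin-7 in mammals. They number 71 of the 14650 genes in the table, namely 30 claudin symbols, 29 connexins and 12 scaffold and other membrane genes. Of these, 54 had enough reads to be tested, including 24 claudins, 18 connexins and all 12 of the others.

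RNA came from entire zebrafish embryos kept at 28 °C and taken with 17 to 18 somites, with 5 libraries of a tpcn2 (TPC2) mutant line and 5 libraries of the ABTU strain as wild type. tpcn2 encodes a cation channel of endosome and lysosome membranes. The labels name neither the mutant allele nor its strain background, nor do they say whether a library is 1 embryo or a pool, or whether replicates are separate clutches, so genotype cannot be told apart from background or clutch and p-values measure the spread between these libraries. In RNA of whole embryos, fewer cells of a type and less RNA per cell cannot be told apart. Totals lay between 17890367 and 22498643 counts per library, and no batch is named in the labels. tpcn2 was at 9.28 ± 1.56 CPM in mutant libraries, against 58.0 ± 14 CPM across wild-type ones (SD, n = 5 each), where CPM are counts scaled by the TMM-corrected size of the library. The exact two-sided permutation test returned p = 0.00794, and no smaller p is possible with these 10 libraries. The libraries of each group correlated with each other at a mean of 0.984 to 0.991 (log2 CPM across genes), with wild-type replicate 1 the lowest.

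Claudins and the scaffold and other membrane genes were higher in the mutant more often than lower, and gap junction genes mostly did not pass the test. Of the 54 tested genes 21 rose and 4 fell (edgeR, adjusted p under 0.05), that is 38.9% and 7.41%, against 20.6% of all 11871 tested genes higher and 21.6% lower (42.2% in either direction). Among claudins 12 rose and 3 fell, among scaffold and other membrane genes 7 rose and 1 fell, and among connexins 2 rose and 0 fell. The classes differed in depth, as 12 of 18 tested connexins reached about 10 counts in every library, against 33 of the 36 other tested genes. At an unadjusted edgeR p under 0.05, 5 connexins were higher and 1 lower. The median log2 fold change was 0.26 over tested claudins, 0.28 over the scaffold and other membrane genes and 0.11 over tested connexins, against -0.0011 over all tested genes. The claudin and connexin medians depended on the setting. The claudin median was 0.20 over the 21 claudins that averaged 1 CPM or more, 0.14 without a filter on counts (fitted values, genes with few reads included) and 0.17 without wild-type replicate 2. The connexin median was 0.012 over the 12 connexins that averaged 1 CPM or more. It was 0.074 without mutant replicate 1, 0.072 without mutant replicate 4, 0.19 without mutant replicate 5, 0.17 without wild-type replicate 4 and 0.018 without wild-type replicate 5. Of the 54 tested genes, 10 rose and 2 fell by at least 0.5 on the log2 scale, against 8.5% and 8.86% of all 11871 tested genes. The remaining 13 of the 25 called genes changed by less. Over all tested genes, 1009 of the 2442 called higher and 1052 of the 2569 called lower changed by at least 0.5. All mutant libraries lay above all wild-type libraries for 14 of the 54 genes and below them for 2, where the shares of all tested genes were 13.7% and 15%. Without 1 library the counts were 18 to 22 higher and 1 to 3 lower.

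**Figure D1:**
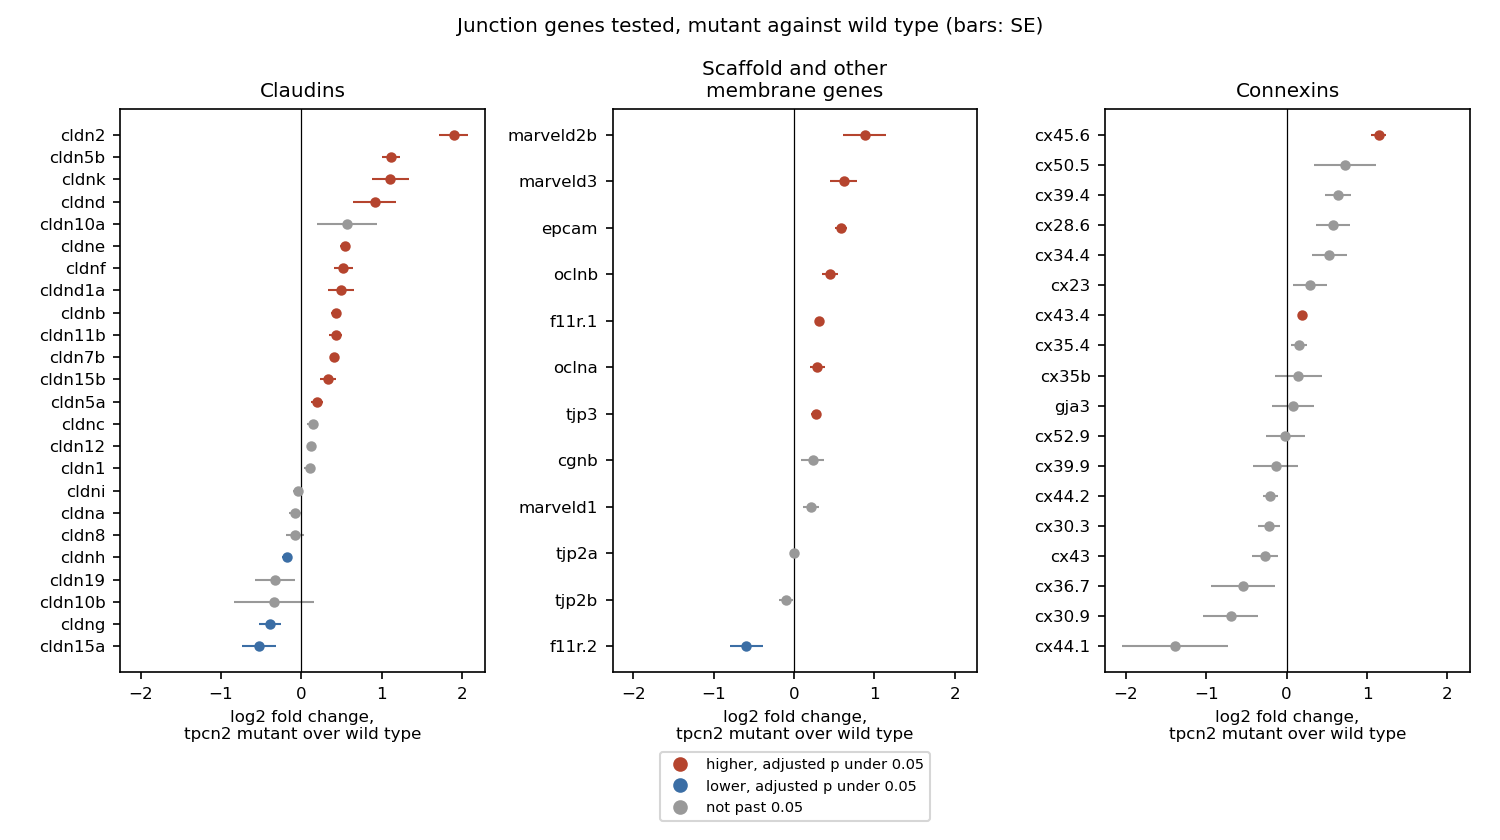
Log2 fold change of mutant over wild type for each tested gene (point) with its SE (bar), in 3 panels for claudins, scaffold and other membrane genes, and connexins, coloured by whether the gene passed an adjusted p of 0.05. Called genes are mostly on the right of 0 in the first 2 panels, and 2 of 18 connexins are called.

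Among genes with a cldn symbol that averaged 1 CPM or more, cldn2, cldn5b and cldnk rose most on the log2 scale. cldn2, whose mammalian counterpart forms cation pores in leaky epithelia such as the kidney proximal tubule, had 7.45, 6.51, 10.8, 9.58 and 6.47 CPM in mutant libraries, against 2.23, 1.76, 1.93, 2.7 and 2.32 CPM in wild type. Every mutant library lay well above the highest wild-type library (log2 fold change 1.90 ± 0.179 SE, 3.72 times, edgeR adjusted p = 2.48e-06). cldn5b, the claudin-5 gene of vascular endothelium in zebrafish, had 8.23, 9.39, 8.62, 8.89 and 10.5 CPM in mutant libraries, against 3.77, 3.90, 4.18, 5.46 and 3.80 CPM in wild type. The groups did not overlap, with wild-type replicate 4 the nearest to the mutant (1.11 ± 0.114, edgeR adjusted p = 1.53e-05). cldnk, known in zebrafish as the claudin of myelinating glia at later stages, had 8.17, 6.32, 6.58, 4.05 and 6.02 CPM in mutant libraries, against 3.24, 2.85, 2.03, 3.93 and 2.37 CPM in wild type. Its groups touched closely, mutant replicate 4 lying just above wild-type replicate 4 (1.11 ± 0.228, edgeR adjusted p = 6.77e-04).

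cldne, cldnf, cldnb, cldn7b and cldn11b rose by smaller amounts. cldne, a claudin of the outer embryonic epithelium, had 294, 346, 323, 335 and 310.5 CPM in mutant libraries, against 239, 231, 197, 229.6 and 209 CPM in wild type. No mutant library fell into the wild-type range (0.54 ± 0.0661, 1.46 times, edgeR adjusted p = 9.24e-06). cldnf had 71.4, 78.7, 82.8, 81.1 and 84.6 CPM in mutant libraries, against 68.1, 59.8, 45.4, 58.4 and 46.7 CPM in wild type. Here mutant replicate 1 and wild-type replicate 1 lay close together without overlap (0.52 ± 0.119, edgeR adjusted p = 7.54e-04). cldnb, an epithelial claudin of the skin and the lateral line primordium, had 222, 264, 251, 226 and 226 CPM in mutant libraries, against 172, 184, 168, 179 and 183 CPM in wild type. cldn7b had 247, 247, 244, 245 and 230.0 CPM in mutant libraries, against 174, 199, 172, 189 and 184 CPM in wild type. Both genes were higher in every mutant library, at 1.34 times (cldnb) and 1.32 times (cldn7b) the wild-type level (edgeR adjusted p = 3.59e-05 and 1.86e-05). cldn11b, whose mammalian counterpart makes the tight junctions of myelin and Sertoli cells, was at 60.5 ± 5.30 CPM across mutant libraries, against 45.1 ± 4.21 CPM across wild-type ones (0.43 ± 0.0790, edgeR adjusted p = 4.77e-04), with no overlap between the groups.

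cldni did not pass the test. It had 404, 388, 427, 361 and 374 CPM in mutant libraries, against 441, 407, 396, 394 and 377 CPM in wild type. The groups overlapped over most of their range (-0.04 ± 0.0565, edgeR adjusted p = 0.545). Of the other claudins that did not pass, cldn12 was at 118 ± 6.17 CPM across mutant libraries, against 108 ± 5.62 CPM across wild-type ones, cldna at 61.6 ± 4.67 and 65.0 ± 6.33 CPM, cldnc at 42.5 ± 3.76 and 38.5 ± 2.12 CPM, and cldn1, a claudin of the epidermal barrier in mammals, at 22.0 ± 1.44 and 20.5 ± 1.74 CPM. cldn8, cldn10a, cldn10b and cldn19 did not pass either. The CPM of all 30 claudin symbols summed to 1757 to 1865 in mutant libraries and 1474 to 1578 in wild type.

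**Figure D2:**
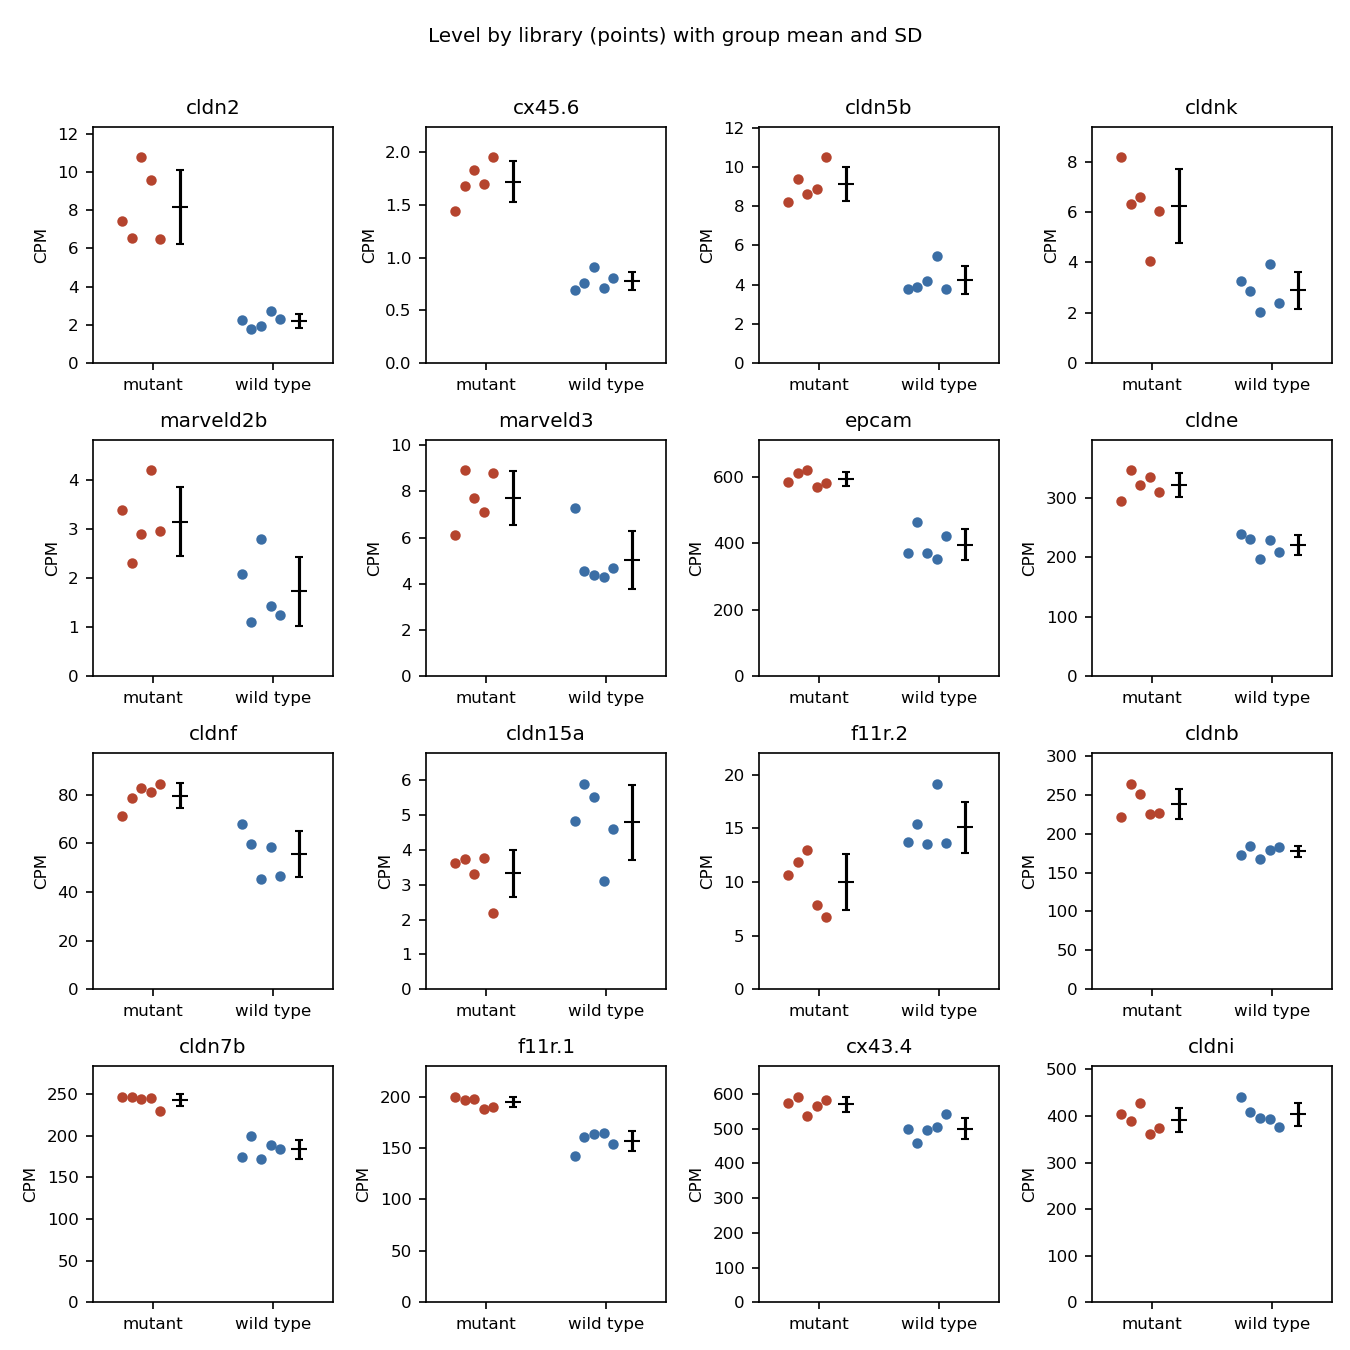
CPM in each library (points, mutant left of wild type) with the group mean and SD (bars, n = 5) for 16 genes, namely those called that averaged 1 CPM or more and changed by 0.5 or more on the log2 scale, and the 5 others with the highest mean CPM. Each vertical axis starts at 0. The groups are separate for cldn2, cldn5b and epcam, while cldni overlaps.

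The calls of 7 claudins lay near the threshold and ended when 1 library or another was left out. cldn15a, one of the zebrafish genes of claudin-15, which makes cation pores in the mammalian gut, had 3.61, 3.74, 3.31, 3.78 and 2.18 CPM in mutant libraries, against 4.84, 5.90, 5.52, 3.11 and 4.60 CPM in wild type. Wild-type replicate 4 lay within the mutant range, and the edgeR adjusted p of 0.0421 became 0.0579 with limma-voom, and 0.0518 to 0.103 with edgeR without any one of mutant replicates 1, 2, 3 and 5 and wild-type replicates 1, 2, 3 and 5. cldng (-0.39 ± 0.132) was at 5.58 ± 0.832 CPM across mutant libraries, against 7.32 ± 0.905 CPM across wild-type ones, and its call ended (edgeR adjusted p = 0.0511 to 0.0836) without mutant replicate 2, 4 or 5 or wild-type replicate 1, 2 or 4. cldnh (-0.18 ± 0.0601) was at 50.7 ± 3.85 CPM across mutant libraries, against 57.5 ± 2.84 CPM across wild-type ones, and its call ended (edgeR adjusted p = 0.0536 to 0.0879) without mutant replicate 1, 3 or 5 or wild-type replicate 2, 4 or 5. These are the 3 claudins that fell, and 0 to 2 fell when 1 library was left out, the 0 occurring without mutant replicate 5 or wild-type replicate 2. Of those that rose, cldn15b (0.33 ± 0.0974) lost its call (edgeR adjusted p = 0.056 to 0.0776) without mutant replicate 1, 2 or 3 or wild-type replicate 2, 3 or 5. cldn5a, a claudin of the neural tube lining, was at 117 ± 11.1 CPM across mutant libraries, against 102 ± 5.53 CPM across wild-type ones and lost its call (edgeR adjusted p = 0.0511 to 0.0784) without mutant replicate 1, 4 or 5 or wild-type replicate 2 or 4. cldnd, at 0.959 ± 0.272 CPM across mutant libraries, against 0.506 ± 0.206 CPM across wild-type ones, reached the count minimum in 5 mutant and 3 wild-type libraries and lost its call (edgeR adjusted p = 0.0528 to 0.111) without mutant replicate 1, 2 or 5 or wild-type replicate 1, 2, 4 or 5. cldnd1a, a claudin domain gene outside the claudin family proper, was at 6.86 ± 1.21 CPM across mutant libraries, against 4.85 ± 0.842 CPM across wild-type ones, and lost its call without mutant replicate 5 (edgeR adjusted p = 0.0599).

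epcam was higher in every mutant library. It had 585, 613, 619, 570.0 and 580.2 CPM in mutant libraries, against 369, 465, 369.5, 354 and 422 CPM in wild type. The lowest mutant library lay above wild-type replicate 2, the highest of its group (0.58 ± 0.0773, 1.5 times, edgeR adjusted p = 1.31e-05). The MARVEL genes marveld2b, which encodes a tricellulin of the points where several cells meet, and marveld3 rose too. marveld2b had 3.39, 2.30, 2.91, 4.19 and 2.96 CPM in mutant libraries, against 2.07, 1.09, 2.78, 1.43 and 1.25 CPM in wild type, where replicate 3 reached into the mutant range (0.88 ± 0.272, edgeR adjusted p = 0.0141). marveld3 had 6.11, 8.91, 7.70, 7.09 and 8.81 CPM in mutant libraries, against 7.28, 4.57, 4.39, 4.28 and 4.69 CPM in wild type. Wild-type replicate 1 stood apart from the other 4 and overlapped the mutant (0.62 ± 0.172, edgeR adjusted p = 0.00789). marveld1 was at 42.4 ± 3.01 CPM across mutant libraries, against 36.7 ± 4.96 CPM across wild-type ones and did not pass (edgeR adjusted p = 0.0738), but passed without wild-type replicate 1 (0.0116, range 0.0116 to 0.167 over all alternatives).

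Both occludin genes rose, oclnb by 0.45 ± 0.101 and oclna by 0.29 ± 0.0957 on the log2 scale. oclnb was at 69.9 ± 3.32 CPM across mutant libraries, against 51.2 ± 7.70 CPM across wild-type ones, with separate groups, and oclna at 72.3 ± 7.62 and 59.1 ± 6.21 CPM, with overlap (edgeR adjusted p = 9.75e-04 and 0.0123). Among scaffold genes tjp3, the gene of zonula occludens protein ZO-3, rose slightly and its groups did not overlap. It was at 22.9 ± 1.44 CPM across mutant libraries, against 19.0 ± 1.07 CPM across wild-type ones (0.27 ± 0.0542, edgeR adjusted p = 0.00943). The ZO-2 genes did not pass, tjp2a being at 95.4 ± 4.11 CPM across mutant libraries, against 95.1 ± 4.62 CPM across wild-type ones and tjp2b at 23.0 ± 1.07 and 24.7 ± 3.16 CPM (edgeR adjusted p = 0.944 and 0.372). cgnb, a cingulin gene, was at 29.4 ± 4.55 CPM across mutant libraries, against 25 ± 3.69 CPM across wild-type ones (edgeR adjusted p = 0.135) and passed without mutant replicate 1 (0.0337, range 0.0337 to 0.302 over all alternatives). No counted gene carried the symbol tjp1a or tjp1b, those of the ZO-1 genes, so they were not analysed here.

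The 2 genes of junctional adhesion molecule A, which lie next to each other in the RefSeq gene order (GRCz12tu), moved in opposite directions. f11r.1 had 199.8, 197, 198, 188 and 190.3 CPM in mutant libraries, against 142, 160.4, 163, 165 and 154 CPM in wild type. f11r.2 had 10.6, 11.8, 13, 7.83 and 6.75 CPM in mutant libraries, against 13.7, 15.4, 13.5, 19.2 and 13.7 CPM in wild type. Neither gene's groups overlapped, f11r.1 being higher (0.31 ± 0.0428, edgeR adjusted p = 1.55e-04) and f11r.2 lower in the mutant (-0.59 ± 0.202, edgeR adjusted p = 0.0106). f11r.2 took 3.42 to 6.18% of the reads of the pair in mutant libraries and 7.66 to 10.4% in wild type.

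The difference between paralogs was tested for 8 pairs, as the log2 CPM of the first gene minus the second in each library. The f11r.1 to f11r.2 difference was 0.93 ± 0.183 higher in the mutant (exact two-sided permutation p = 0.00794, 0.0212 adjusted over the 8 pairs). As neither gene's groups overlapped, this smallest possible p was already fixed by the values above and is no further support. cldn5a and cldn5b both rose, cldn5b by more, and their difference changed by -0.91 ± 0.131 (exact permutation p = 0.00794, adjusted 0.0212). The separate levels of cldn5a and cldn5b in each group already fixed this smallest possible p too, so it is no further support. cldn15a and cldn15b moved apart, with cldn15b holding 70.4 to 81.2% of their reads in mutant libraries and 53.6 to 75.3% in wild type (-0.84 ± 0.273, exact permutation p = 0.0317, adjusted 0.0423). oclnb rose slightly more than oclna (-0.17 ± 0.0601, exact permutation p = 0.0159, adjusted 0.0317). Among connexins, cx28.6 and cx30.9, the gjb9a and gjb9b genes of RefSeq, differed by 1.21 ± 0.348 more in the mutant (exact permutation p = 0.00794, adjusted 0.0212). Neither gene passed by itself (edgeR adjusted p = 0.0731 and 0.119), and the pair rested on few reads, 8 to 34 per library for cx30.9. The lens-type genes cx50.5 and cx44.1 (gja8a and gja8b) also differed more in the mutant (2.30 ± 0.837, exact permutation p = 0.0317, adjusted 0.0423), on few reads and with 2 mutant libraries holding no cx44.1 read. cx50.5 reached the count minimum in 4 mutant and 2 wild-type libraries, and cx44.1 in 1 mutant and 4 wild-type libraries. Each thus entered the test mostly through the group where it was higher, so no conclusion is drawn from this p. For tjp2a and tjp2b (0.0992 ± 0.0678, exact permutation p = 0.190, adjusted 0.198) and for cldn10a and cldn10b (0.91 ± 0.643, exact permutation p = 0.198, adjusted 0.198) the difference did not pass. Reads of similar genes may have been split between them, and how they were counted is not given in the sources used here.

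**Figure D3:**
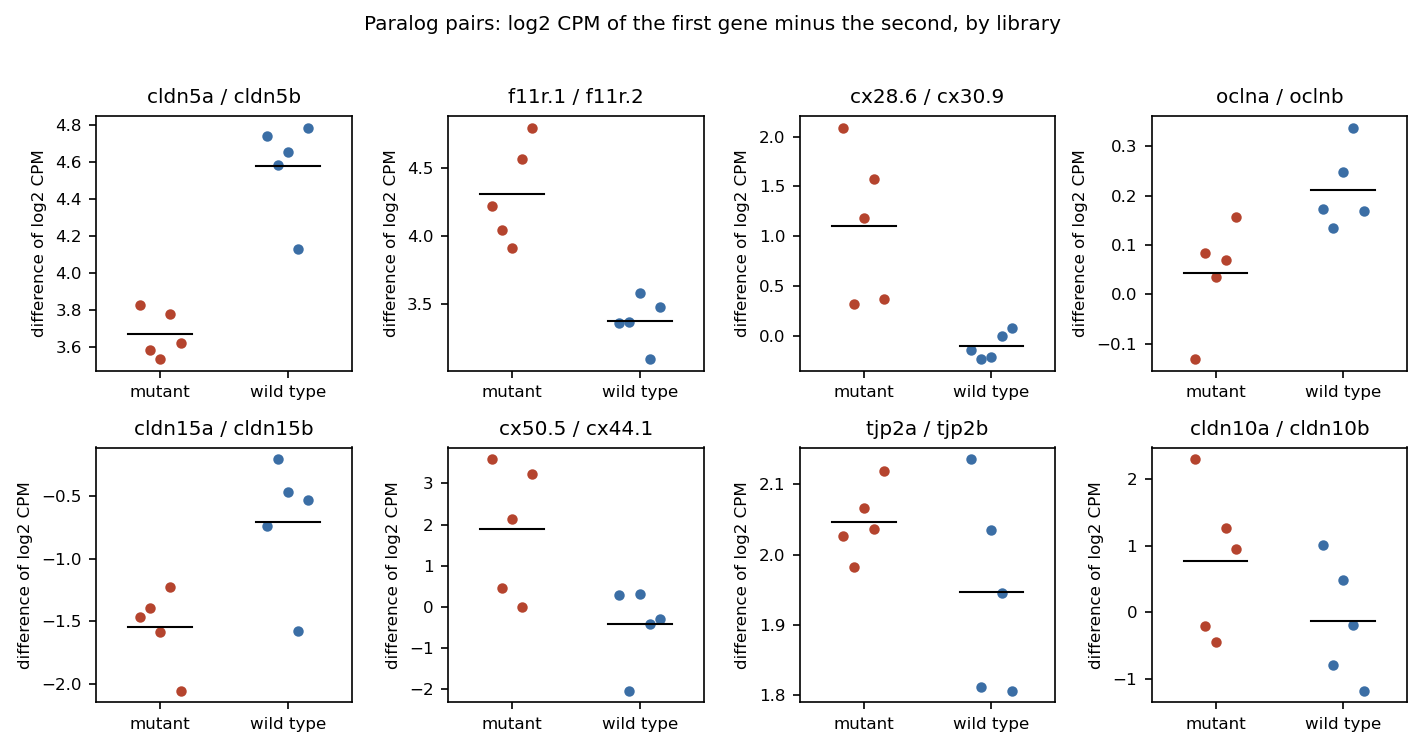
Log2 CPM of the first gene minus that of the second in each library (points, mutant left of wild type) with the group mean (line) for the 8 paralog pairs. Axes differ between panels and do not start at 0. The groups are separate for f11r.1 and f11r.2 and for cldn5a and cldn5b, and they overlap for tjp2a and tjp2b.

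Of the 18 tested connexins 2 rose. cx45.6, listed by RefSeq as gja5a, a relative of the connexin 40 gene of arteries and atria in mammals, had 1.45, 1.68, 1.84, 1.70 and 1.95 CPM in mutant libraries, against 0.691, 0.761, 0.910, 0.714 and 0.804 CPM in wild type. The groups were well apart for so few reads (1.14 ± 0.0928, 2.21 times, edgeR adjusted p = 6.04e-04). cx43.4, known for its role in Kupffer's vesicle, the organ of left-right asymmetry, had 574, 592, 537, 565 and 583 CPM in mutant libraries, against 499, 458, 497, 504 and 543 CPM in wild type. Wild-type replicate 5 overlapped the lowest mutant library, and the change was small (0.19 ± 0.0458, 1.14 times, edgeR adjusted p = 0.00595). Both calls held in each of the 17 alternatives.

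The other 16 tested connexins did not pass, their log2 fold changes running from -1.39 to 0.73. With edgeR 0 connexins fell, 1 was lower at an unadjusted p under 0.05, and 0 fell under DESeq2 and 1 under limma-voom. That gene was cx44.1 (limma-voom adjusted p = 0.0226, range 0.0226 to 0.176 over all alternatives), which had 0, 0.671, 0.153, 0.461 and 0 CPM in mutant libraries, against 0.851, 1.28, 0.535, 0.510 and 0.402 CPM in wild type, with 0 reads in mutant replicates 1 and 5. cx43, the gene of the fin length mutant short fin, had 23.6, 27.9, 30.7, 27.7 and 25.2 CPM in mutant libraries, against 28.4, 47.5, 26.7, 30.3 and 30.2 CPM in wild type, and wild-type replicate 2 alone stood high (edgeR adjusted p = 0.126). cx30.3 was at 39.2 ± 3.46 CPM across mutant libraries, against 45.6 ± 8.47 CPM across wild-type ones and passed, as lower in the mutant, without wild-type replicate 1 alone (edgeR adjusted p = 0.0191, range 0.0191 to 0.318). cx34.4 was at 3.73 ± 0.861 CPM across mutant libraries, against 2.57 ± 0.620 CPM across wild-type ones and lay at the threshold (edgeR adjusted p = 0.0544), passing without mutant replicate 1 or 3 or wild-type replicate 2 or 5 (0.0281 to 0.0486) and with DESeq2 (0.0426). cx39.4, a pigment stripe connexin, was higher in all mutant libraries, at 1.1 ± 0.213 CPM against 0.702 ± 0.133 CPM in wild type, and did not pass (edgeR adjusted p = 0.0552). cx28.6 passed without wild-type replicate 3 (0.0491) and cx50.5 without wild-type replicate 1 (0.0301), both higher in the mutant. The summed CPM of all 29 connexins was 657 to 711 in mutant libraries and 606 to 664 in wild type.

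**Figure D4:**
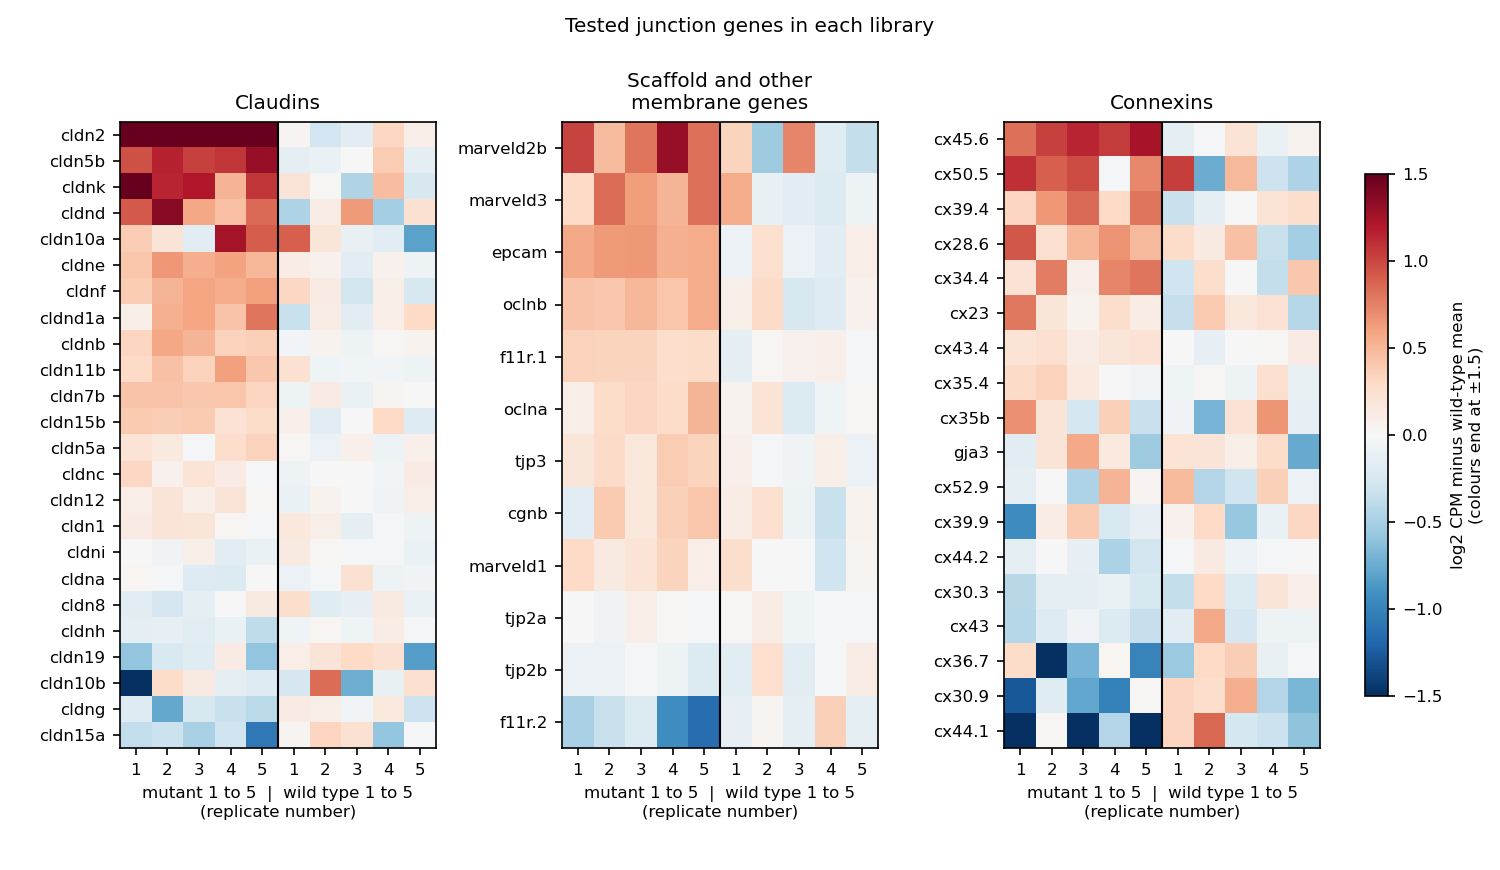
Log2 CPM of each tested gene in each library minus the wild-type mean of that gene (colour, ending at ±1.5), with mutant replicates 1 to 5 left of wild-type replicates 1 to 5. Rows run from the largest to the smallest fold change. cldn2, cldn5b and cx45.6 are high in all 5 mutant libraries, whereas the lower connexin rows vary among the libraries of 1 group.

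Of the 71 genes 17 were not tested for low counts, 6 claudins and 11 connexins, with 0 to 101 reads over all 10 libraries. cldnd1b and cx47.1 had no reads, which allows up to 0.134 to 0.167 CPM per library (3 counts, counting error only). cx41.8, the connexin of the leopard pigment mutant, had 22 reads in mutant libraries and 9 in wild type, and cldn15la, the claudin-15-like gene of the gut, had 29 in mutant libraries and 64 in wild type. cldn15lb had 0 reads in mutant libraries and 10 in wild type. Without the filter on counts it was called lower (edgeR adjusted p = 0.0360), which made 4 claudins and 5 junction genes lower.

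Where genes of the families that lie side by side were both called, both rose, except f11r.1 and f11r.2, which moved in opposite directions. Many other neighbours did not pass or were not tested. In the RefSeq order cldne, cldnf and cldna are neighbours, of which the first 2 rose and cldna did not pass (-0.08). In a second row cldnh fell, cldnc did not pass, and cldnb and cldnd rose. Between cldnb and cldnd lies zgc:112437, called cldn29 by RefSeq and outside the 71 genes by its symbol in the table, which was at 2.15 ± 0.305 CPM across mutant libraries, against 0.853 ± 0.271 CPM across wild-type ones (1.32 ± 0.214, edgeR adjusted p = 6.88e-04). zgc:136892 (cldn30), also near cldnd, was at 24.6 ± 0.718 CPM across mutant libraries, against 21.0 ± 1.32 CPM across wild-type ones (0.22 ± 0.0443, edgeR adjusted p = 0.0180). marveld2b and oclnb, which both rose, are neighbours, and so are cx50.5, which did not pass, and cx45.6. In all 7 genes of the table had a RefSeq name that fits these families but another symbol, and they were named after their values were seen. Of these zgc:110333 (cldn8.2) and zgc:194261 (gjd1a) did not pass and 3 were not tested.

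Other genes of the junction pathway showed both directions. Of 33 tested junction partners, which include crumbs and par polarity genes, junctional adhesion molecules B and C, angulins and pannexins, 10 rose and 5 fell (30.3% and 15.2%, against 20.6% and 21.6% of all tested genes), and 8 fell without wild-type replicate 5. crb3b, a crumbs polarity gene, was at 28.2 ± 1.49 CPM across mutant libraries, against 16.2 ± 2.5 CPM across wild-type ones (0.80 ± 0.1), ildr1a, an angulin of tricellular contacts, rose by 0.49 ± 0.0996 and llgl2, a basolateral polarity gene, by 0.29 ± 0.0453. jam3b, of junctional adhesion molecule C, fell by 0.87 ± 0.0710, crb1 by 0.69 ± 0.0998 and crb2b by 1.24 ± 0.256 on the log2 scale. Of 17 epithelial regulators 6 (35.3%) rose and 0 fell with edgeR, with 0 lower at an unadjusted p under 0.05 and 0 under DESeq2 and limma-voom, and 3 rose without mutant replicate 3 or wild-type replicate 3. ovol1 and grhl1, transcription factor genes of epithelia, rose by 0.52 ± 0.145 (ovol1) and 0.30 ± 0.0624 (grhl1) on the log2 scale.

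Markers of the cell types that carry these junctions moved unequally, and their part in the changes above was not tested. Their shares are to be read against the 20.6% of all tested genes that were higher and the 21.6% that were lower. Of 15 markers of periderm and epidermis, which carry many of the epithelial claudins, 2 rose and 7 fell (13.3% and 46.7%), and their summed CPM was 36105 to 40126 in mutant libraries and 36639 to 42469 in wild type. The keratin gene cyt1 fell by 0.75 ± 0.0818, anxa1b by 2.03 ± 0.0538 and agr1 by 0.44 ± 0.0650, while anxa1a (0.68 ± 0.153) and evpla (0.31 ± 0.0944) rose. Of 10 endothelial markers, beside cldn5b and cx45.6, 4 (40%) rose and 0 fell with edgeR (0 lower at an unadjusted p under 0.05, and 0 under DESeq2 and limma-voom), and their sum was 307 to 344 CPM in mutant libraries and 248 to 267 CPM in wild type. sox7 rose by 0.61 ± 0.0788 and the receptor gene kdr by 0.84 ± 0.169 on the log2 scale, while 6 of the 10 markers did not pass. Of 8 pronephros markers 3 rose and 2 fell (37.5% and 25%), with sums of 352 to 412 CPM in mutant libraries and 328 to 377 CPM in wild type. Notochord markers rose in 7 and fell in 2 of 10 (70% and 20%, and 4 rose without wild-type replicate 3), with sums of 913 to 984 CPM in mutant libraries and 663 to 833 CPM in wild type. Of 8 ionocyte markers 0 rose and 3 (37.5%) fell with edgeR, DESeq2 and limma-voom, 1 being higher at an unadjusted p under 0.05, and 1 rose without wild-type replicate 1. Their sums were 234 to 266 CPM in mutant libraries and 262 to 286 CPM in wild type. No marker matched in the table was at 0 in all libraries.

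The remaining marker lists gave the setting of the whole embryo. Neural tube markers rose in 1 and fell in 6 of 9 (11.1% and 66.7%), and 0 rose with DESeq2, with library size alone or without mutant replicate 1, 2, 4 or 5 or wild-type replicate 1, 3, 4 or 5, with sums of 1205 to 1357 CPM in mutant libraries and 1462 to 1679 CPM in wild type. Skeletal muscle markers rose in 1 and fell in 5 of 9 (11.1% and 55.6%), with sums of 1405 to 1658 CPM in mutant libraries and 1790 to 2324 CPM in wild type. Heart markers rose in 1 and fell in 4 of 7 (14.3% and 57.1%), but their sums were higher in every mutant library, at 181 to 213 CPM in mutant libraries and 164 to 180 CPM in wild type. Much of these sums came from gata5, the marker that rose. It was at 125 ± 7.78 CPM across mutant libraries, against 87.9 ± 11.9 CPM across wild-type ones. Neural crest markers also rose in 1 and fell in 4 of 7, with sums of 375 to 413 CPM in mutant libraries and 433 to 459 CPM in wild type. Of the neural crest markers 0 rose without mutant replicate 1, 2, 3 or 5 or wild-type replicate 1, 4 or 5, and 2 fell without mutant replicate 3 or 5. Hatching gland markers rose in 3 and fell in 1 of 6 (50% and 16.7%), with sums of 3345 to 3974 CPM in mutant libraries and 2944 to 3222 CPM in wild type. Yolk syncytial layer markers rose in 3 and fell in 2 of 9 (33.3% and 22.2%, and 5 rose without wild-type replicate 3), with sums of 21030 to 23374 CPM in mutant libraries and 16608 to 24874 CPM in wild type. Blood markers rose in 3 and fell in 3 of 9 (33.3% each, and 1 rose without mutant replicate 1 or 3 or wild-type replicate 3), with sums of 519 to 601 CPM in mutant libraries and 514 to 588 CPM in wild type.

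In the authors' deposited table, 69 of the 71 genes are listed, 67 of them with an adjusted p. Of these, 22 are higher and 4 lower in the mutant at an adjusted p under 0.05. Of all 13460 genes with an adjusted p there, 2607 are higher and 2701 lower. All 21 increases and all 4 decreases called here are among the 22 and 4, and the further one is cx34.4. Both comparisons come from the same libraries, so the match is not independent.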

How the data were processed

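The authors deposited unnormalised counts, one row for each gene symbol and one column for each of 10 libraries, which the labels' descriptions tie to samples. A second deposited table, the authors' own comparison, gives log2 fold changes, p-values, a test statistic (a score) and a mean normalised signal, per the file headers. The submitters' processing notes name STAR 2.7, cutadapt 3.4 and DESeq2 1.30.0, and as builds mm10 and danRer10, without roles. How reads were counted, with which annotation and whether by strand, is not given in the sources used here, so reads of overlapping genes cannot be told apart.

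Counts were filtered with edgeR's filterByExpr (11871 genes kept, about 10 counts in at least 5 libraries), scaled with TMM and compared by the quasi-likelihood test of edgeR 4.0.16 under R 4.3.3. The model held genotype alone, and p-values were adjusted by Benjamini-Hochberg across every tested gene and read at 0.05. CPM use TMM-scaled library sizes. SEs are of the difference of mean log2 CPM (prior count 2). With 17890367 counts in the shallowest library, 3 counts are 0.167 CPM, and such limits cover counting error only. The procedure was tested on simulated counts in which a small share of genes was changed. That run does not cover changes as broad as those found here. Paralog pairs were compared by exact permutation (scipy 1.17.1, Python 3.11.15). Per-library values are given for called genes that averaged 1 CPM or more and changed by 0.5 or more on the log2 scale, and for the 5 others with the highest mean CPM. From other lists up to 3 genes a direction are taken, smallest p first, and 1 gene so taken is not reported here.

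The genes and lists were chosen with earlier results of these data known. All 71 symbols matched the RefSeq gene table of GRCz12tu, which was used for names and gene order. Levels were not compared between genes, since transcript lengths were not used here, and no sequence was used. Alternatives were RLE size factors, library size alone, DESeq2 1.42.0, limma-voom (limma 3.58.1), no filter, a filter at a mean of 1 CPM, a block for the replicate number, and leaving out each library.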

Additional observations from a re-analysis of the deposited data

Results flagged for a closer look

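Of 108 groups of 5 libraries (54 genes, mutant and wild type), 12 held a library far from the other 4 on the log2 scale, where chance gives about 1 in 20. In the mutant, replicate 5 was low for cldn7b (230.0 CPM, against 244 to 247 CPM in the others), cldnh (44.0 CPM, against 51.4 to 53.7 CPM) and cldn15a (2.18 CPM, against 3.31 to 3.78 CPM). Mutant replicate 1 was low for cldn10b (0.111 CPM, against 0.669 to 0.958 CPM) and high for cx23 (2.11 CPM, against 1.22 to 1.43 CPM). In wild type, replicate 1 was high for cldn11b (52.5 CPM, against 42.7 to 43.7 CPM) and marveld3 (7.28 CPM, against 4.28 to 4.69 CPM). Wild-type replicate 2 was high for cx43 (47.5 CPM, against 26.7 to 30.3 CPM), replicate 3 for cldna (76.2 CPM, against 60.9 to 63.8 CPM) and replicate 4 for cldn5b (5.46 CPM, against 3.78 to 4.18 CPM). Wild-type replicate 5 was low for cldn19 (1.07 CPM, against 2.13 to 2.46 CPM) and gja3 (0.223 CPM, against 0.482 to 0.561 CPM).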

How the results depend on the processing

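Over 17 alternatives, 17 of the 21 genes called higher and 1 of the 4 called lower (f11r.2) stayed past 0.05 in the same direction. No fold change of a called gene or of cldni reversed, and the other genes were not checked for a reversal. The counts of tested genes were 2345 to 2593 higher and 2451 to 2641 lower with all libraries, and 2146 to 2611 and 2317 to 2701 without 1 library. Without 1 library, claudins numbered 9 to 11 higher and 0 to 2 lower, connexins 2 to 3 higher and 0 to 1 lower, scaffold and other membrane genes 7 to 8 higher and 1 lower, and all junction genes 18 to 22 higher and 1 to 3 lower. limma-voom called 1 connexin lower (cx44.1). The log2 fold change of tpcn2 was -2.71 to -2.49 without 1 library. The cause of these differences was not tested. Same-numbered libraries did not deviate together (correlations of deviations -0.0615 to 0.0745). This cannot show whether they shared a clutch or a preparation, and the labels do not say. With the replicate block 20 junction genes were higher and 3 lower. These were 10 claudins higher and 2 lower, 3 connexins higher, and 7 scaffold and other membrane genes higher and 1 lower. Under the block cx34.4 passed (edgeR adjusted p = 0.0425), and cldn15a (0.0549), cldn15b (0.0505) and cldnd (0.0526, all edgeR adjusted p) did not. It also gave 0 neural crest, 5 yolk syncytial layer and 1 blood marker higher and 2 hatching gland markers lower. Genes near 1 CPM or less, such as cldnd, cx44.1, cx50.5 and gja3, rest on few reads, so a difference there may not be detectable at this depth.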
